A study of Mus musculus with 35 samples.

Results

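The posterior and the anterior portion of the basolateral amygdala were compared within the same animals in C57BL/6J mice, a widely used inbred strain. Members were the count libraries of the C57BL/6J mice that had a library of each portion, paired by the mouse code in the sample descriptions, which gave 12 of the 35 libraries analysed, from 6 female mice. Mice 1 to 4 were kept in the control environment (standard housing) and mice 5 and 6 in an enriched environment with access to a playground for 1 h per day from postnatal day 77. Mice of both housings, and the B6D2F1N mice of the comparison strain, were without a labelled transgene, were food restricted and were trained from postnatal day 70, over 37 to 90 days, for a touchscreen test of cognitive judgement bias, so that no untrained mice enter any comparison. Cells were cut by laser capture microscopy from stained cryosections, and polyadenylated RNA was sequenced. No marker selected the captured cells, and each library therefore mixes neurons, glia and vessels. In such bulk samples, fewer cells of a type and less RNA per cell cannot be told apart. The methods text of the study pairs the bregma ranges of both portions in the reverse of their anatomical order. Which of the orders the labels follow was not tested, and all signs given here are for libraries as labelled.

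The basolateral amygdala holds glutamatergic projection neurons that resemble those of the cortex, and a smaller number of GABAergic interneurons. It links sensory input to emotional value, and its projection neurons are known to change in gene expression along the anterior-posterior axis, with Rspo2 as a marker of anterior and Ppp1r1b as a marker of posterior neurons. Neuropeptides, which are released from dense-core vesicles together with chromogranins and secretogranins, act on G protein-coupled receptors and tune these circuits. Potassium, sodium and calcium channels set how readily the neurons fire.

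Reads counted on genes were 18524769 to 22740018 per anterior library and 21961946 to 26126984 per posterior library. The total was higher in the posterior library of 6 of 6 mice (exact sign-flip permutation test over mice, two-sided, p = 0.031, the smallest this design allows, adjusted p = 0.094 over 3 measures). The mean number of genes detected (19961 to 23576 anterior, 21232 to 23469 posterior) did not differ beyond the spread between mice in the same test (adjusted p = 0.531). Nor did the mean share of reads on no gene (14.3 to 18.1% anterior, 13.7 to 24.4% posterior, adjusted p = 0.469). That share varied more between posterior libraries (SD 4.21 against 1.36), which this test of means does not address. Each of the 12 libraries correlated more with the mean of the other mice's libraries of its own portion (r across 15720 genes of 0.915 to 0.968) than with that of the other portion (0.877 to 0.937). The gap was smallest for the posterior library of mouse 5, with 0.943 against 0.937. None of the 66 pairs of libraries held identical counts.

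Of 25751 genes with at least 10 reads in total, 937 (3.64%) were differentially expressed between the portions at an adjusted p of at most 0.05 (edgeR quasi-likelihood test with the mouse as block, Benjamini-Hochberg adjustment). Of these, 396 were higher (1.54% of the genes tested) and 541 were lower (2.1%) in the posterior portion, and 882 were protein coding. With library totals as the only scaling, which put the median log2 fold change of all genes at 0.106 in place of 0.013, the split was 539 higher (2.09%) and 430 lower (1.67%). Higher genes had the wider changes, with 154 of 396 over 4-fold against 111 of 541 lower genes. They were also less abundant, with a median level of 20.8 CPM against 54.3 CPM. In the portion with the lower level, 92 of the higher and 37 of the lower genes had a mean under 1 CPM, where ratios are least certain. The libraries of the portions did not overlap at all for 187 of the higher and 279 of the lower genes, and over all genes tested, called or not, for 1.03% in the higher and 1.42% in the lower direction. Every mouse showed the same direction for 330 of the 396 higher and 451 of the 541 lower genes. The number of genes past the threshold changed when 1 mouse was left out, to 606 without mouse 1, 602 without mouse 4 and 1070 without mouse 5. Each of these fits has fewer mice, and the part of that in the counts was not tested.

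The most strongly supported gene was Oprk1 (chr1:5588466-5606131, GRCm38), which encodes the kappa opioid receptor for dynorphin peptides. Levels in the anterior libraries of mice 1 to 6 were 119, 168, 153, 199, 102 and 79.7 CPM, the read count scaled to a library of 1000000 reads. In the posterior libraries of the same mice they were 3.42, 8.65, 5.65, 12.4, 5.84 and 5.64 CPM. The lowest anterior library was thus above the highest posterior one, and the fitted difference was 20.3-fold (log2 fold change -4.35 ± 0.21, SE, adjusted p = 2.1e-09). Npsr1 (chr9:24097996-24316398), the receptor of neuropeptide S, changed most among the leading lower genes. Its levels were 76.8, 223, 136, 128, 65.7 and 101 CPM in the anterior against 2.83, 4.5, 2.35, 8.9, 1.27 and 1.36 CPM in the posterior libraries, which also did not overlap (39.7-fold lower in posterior, log2 fold change -5.31 ± 0.29, adjusted p = 9.4e-09). Bmp3, a secreted antagonist of bone morphogenetic protein signalling, fell from a median of 694 CPM (394 to 1022) to 95.6 CPM (49.9 to 162), a log2 fold change of -2.98 ± 0.17. The growth factor gene Vegfd (13.3-fold), Dkkl1 (13.9-fold), the serine protease gene Prss23 (8.08-fold), Sstr2 (4.71-fold) and Nrep (5.84-fold) completed the 8 leading lower genes, and none of the 8 overlapped between portions.

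Among the 8 leading higher genes, Dcn, which encodes the extracellular matrix proteoglycan decorin, was at 11 to 36.9 CPM in the anterior (median 20.3) and at 762 to 1671 CPM in the posterior libraries (median 1284). The difference was 55.6-fold (log2 fold change 5.8 ± 0.33, adjusted p = 9.4e-09). Ptpro, a receptor tyrosine phosphatase gene, was higher by 5.06-fold, with 17.1 to 29.9 CPM in the anterior against 85.9 to 138 CPM in the posterior libraries. Vgll3, a transcriptional cofactor gene, had 3 reads in all anterior libraries together and 2023 in the posterior ones, a ratio of 551 with a 95% counting interval of 188 to 2676. Myh7, a myosin heavy chain gene, was higher by 9.24-fold and Cd36, a fatty acid transporter gene, by 18.1-fold. Cbln4, a secreted synapse organizer of the cerebellin family, was higher by 6.78-fold, although the anterior library of mouse 2 (51.9 CPM) lay just above the lowest posterior library (48.5 CPM). Rxfp3 and Tmem212, described below with their groups, were the other two. The plot of the leading genes gives these values by mouse.

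**Figure D1:**
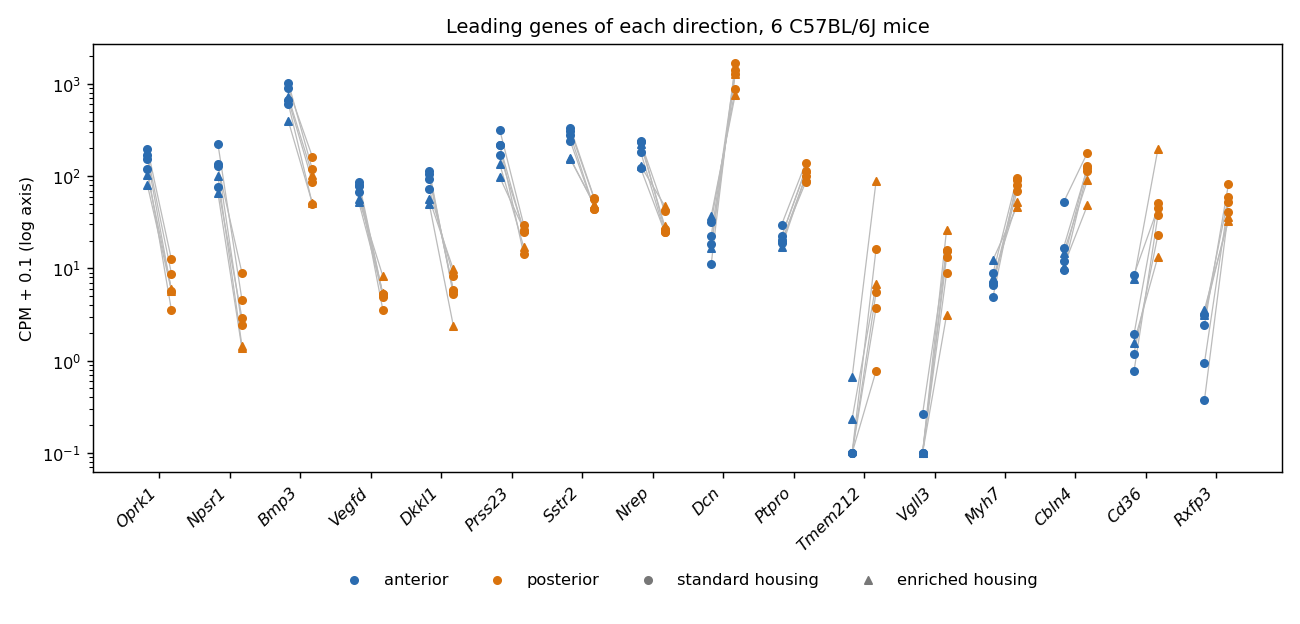
Level of the 8 leading genes lower and the 8 leading genes higher in the posterior portion, in CPM plus 0.1 on a log axis. Each point is a library, each line joins the libraries of a mouse, and triangles are mice in enriched housing. The portions overlap only for Cbln4, while Tmem212 and Cd36 vary most between posterior libraries.

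Genes of neurons, peptides, receptors and channels passed the threshold in both directions. Of 358 members tested, 28 were higher and 65 lower in the posterior portion, together 26.0%, against 3.64% of all genes tested and 7.48% of the protein-coding genes with a mean of at least 10 CPM. Their median log2 fold change was -0.24, with 0.013 over all genes tested. These lists were drawn up with earlier results of these data known, so that the shares are a description. Of 55 neuropeptide receptor genes, 9 were higher and 8 lower, and of 114 channel genes, 3 were higher and 21 lower.

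**Figure D2:**
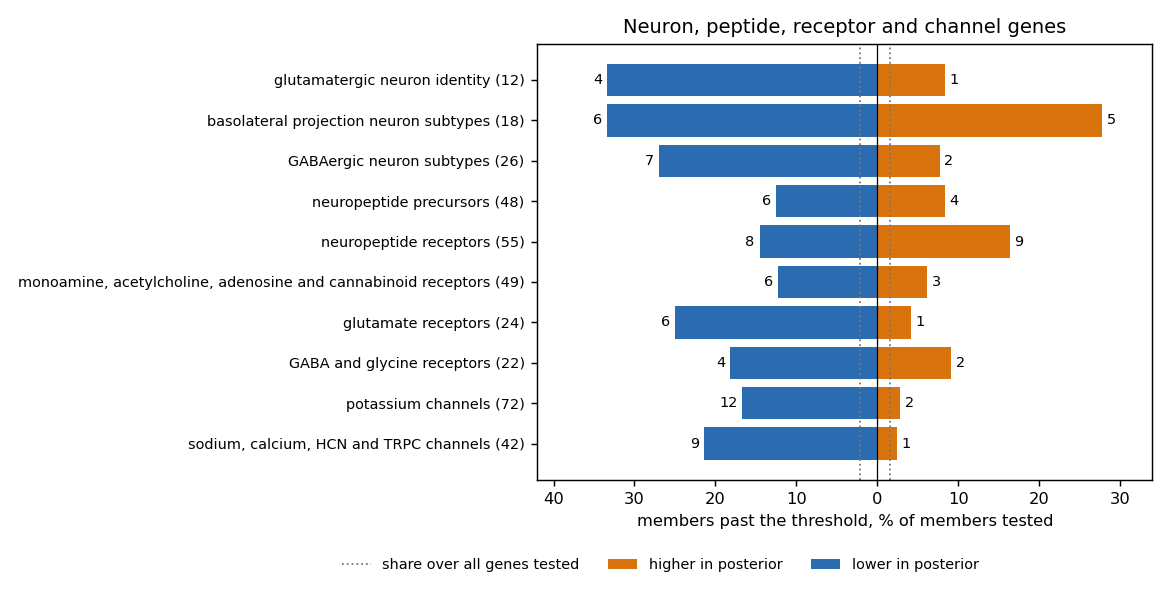
Share of the members of each list that passed the threshold, in percent of the members tested, higher (right, orange) and lower (left, blue) in the posterior portion. Numbers at the bars are counts of genes, the number tested follows each list's name, and dotted lines mark the shares over all genes tested, 1.54% and 2.1%.

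Among 12 genes of glutamatergic neuron identity, 4 were lower and 1 was higher in the posterior portion. Tbr1, a transcription factor of cortical and amygdalar projection neurons, was at 23.4 to 28.3 CPM in the anterior against 2.07 to 14.4 CPM in the posterior libraries. The portions did not overlap (log2 fold change -2.25 ± 0.36, adjusted p = 0.001). Neurod6, another transcription factor of these neurons, had a median of 174 CPM (88 to 234) in the anterior and 30.4 CPM (11.6 to 171) in the posterior portion, and the highest posterior value was that of mouse 5, above its own anterior library. It did not pass without the mouse as block (log2 fold change -1.72, against -2.31 with it) nor with edgeR's robust empirical Bayes estimate of the spread (the robust fit). Slc17a7 and Slc17a6 encode the vesicular glutamate transporters VGLUT1 and VGLUT2, which fill synaptic vesicles with glutamate and mark different groups of projection neurons. Slc17a7 was at 477 to 817 CPM in the anterior against 164 to 488 CPM in the posterior libraries (log2 fold change -1.22 ± 0.23, adjusted p = 0.0035). Slc17a6 went the other way (log2 fold change 1.58 ± 0.37, adjusted p = 0.02), from 41.5, 81.8, 55.6, 33.4, 183 and 83.4 CPM to 180, 275, 231, 428, 173 and 81.3 CPM. It was higher in the posterior library of the 4 standard-housed mice and about level in mice 5 and 6. Slc17a6 did not pass without any single one of mice 1 to 4 (highest adjusted p = 0.082) nor in DESeq2 (adjusted p = 0.069). Camk2a, the kinase gene abundant in projection neurons, had medians of 2176 and 1744 CPM and did not pass (adjusted p = 0.58, a gene outside the selection rule).

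Markers of basolateral projection neuron subtypes divided, with 6 of 18 lower and 5 higher. Rspo2, a secreted enhancer of Wnt signalling and the marker of anterior neurons named above, was at 111 to 300 CPM in the anterior libraries (median 196) and at 17 to 52.5 CPM in the posterior ones (median 28). It was 6.04-fold lower in posterior (adjusted p = 1.1e-06). Sema3e, a secreted guidance cue, was 10.9-fold lower, with 110 to 208 CPM against 6.38 to 25.1 CPM. Satb1, a chromatin organizer, was 5.17-fold lower, with 39.9 to 109 CPM against 10.2 to 17.5 CPM. In these 3 genes the portions did not overlap. Dkk3, a secreted glycoprotein of the Dickkopf family, had medians of 1227 and 415 CPM and was lower in 5 of 6 mice, while mouse 5 had 819 CPM in the anterior against 840 CPM in the posterior library. Cux2 and Thy1 were lower as well, and Thy1 lost its call without mouse 1, 2, 3, 4 or 6 (highest adjusted p = 0.216).

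In the opposite direction, Cdh13, which encodes the membrane-anchored T-cadherin, was at 64.4 to 156 CPM in the anterior against 273 to 586 CPM in the posterior libraries, without overlap (4.05-fold higher, adjusted p = 4.9e-05). Otof, which encodes otoferlin, a calcium sensor of vesicle release, was 4.64-fold higher, with 4.54 to 14.6 CPM against 26.5 to 47.5 CPM. Lypd1, a modulator of nicotinic receptors, was higher in 6 of 6 mice (37.2 to 285 against 219 to 697 CPM, 4.18-fold, adjusted p = 6.7e-05). Calb1, which encodes calbindin, was higher too (log2 fold change 1.45 ± 0.33), but not past the threshold without mouse 1 or mouse 4 (highest adjusted p = 0.0824). Ppp1r1b, the marker of posterior neurons named above, was at 13.6 to 69 CPM in the anterior against 13.8 to 81.4 CPM in the posterior libraries, higher in 3 of 6 mice, and did not pass (log2 fold change 0.2 ± 0.44, adjusted p = 0.93). The 2 portions overlapped almost fully for this gene, which lies outside the selection rule.

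Of 26 genes of GABAergic neurons, 7 were lower and 2 higher in the posterior portion. The genes that define all GABAergic cells did not pass. Gad1, which encodes the main GABA-synthesizing enzyme, had a median of 240 CPM in the anterior against 222 CPM in the posterior libraries (log2 fold change -0.25 ± 0.18, adjusted p = 0.65), and Sst, the marker of somatostatin interneurons, had 404 and 421 CPM (0.03 ± 0.21, adjusted p = 0.99). Subtype genes differed nonetheless. Npy, described with the peptides, and Ndnf, a marker of neurogliaform cells (19.6 to 46.9 against 6.81 to 23.3 CPM, log2 fold change -1.35 ± 0.26), were lower in 6 of 6 mice. Vip, the peptide of a further interneuron class, had a log2 fold change of -0.96 ± 0.16 and Cnr1, the cannabinoid receptor CB1 of cholecystokinin interneurons, of -0.90 ± 0.14, and both were lower in every mouse. Pvalb, Reln and Lamp5 passed with all mice, but each lost its call when single mice were left out (highest adjusted p = 0.0752, 0.0894 and 0.0846). Htr3a, the serotonin-gated channel of a superficial interneuron class, was higher in 6 of 6 mice, with 16.4 to 52.2 CPM in the anterior against 34.4 to 102 CPM in the posterior libraries (2.9-fold, adjusted p = 0.00014). Calb2, which encodes calretinin, was higher in 5 of 6 mice (log2 fold change 2 ± 0.35), with the exception of mouse 5, whose anterior library (132 CPM) lay above its posterior one (76.8 CPM). It did not pass without the mouse as block, with all 14 C57BL/6J libraries or in the robust fit.

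Of 48 neuropeptide precursor genes, 4 were higher and 6 lower. Cartpt (chr13:99898489-99901091), which encodes the cocaine- and amphetamine-regulated transcript peptides, was low in the anterior libraries, at 5.25, 0.598, 2.18, 1.17, 4.66 and 1.93 CPM. In the posterior libraries it was at 47.8, 61.5, 31.9, 26.9, 20.8 and 44.7 CPM, above every anterior library (16.4-fold, log2 fold change 4.04 ± 0.42, adjusted p = 1.3e-05). Grp, the gastrin-releasing peptide gene, had 8.62 to 21.3 CPM in the anterior portion and 62.6 to 121 CPM in the posterior libraries of mice 1 to 5. Mouse 6 had 21.3 and 18.1 CPM, so that Grp was higher in 5 of 6 mice (4.75-fold, adjusted p = 0.00032). Nts, the neurotensin gene, had medians of 17.3 and 50.4 CPM (log2 fold change 1.56 ± 0.33) and did not pass without mouse 4 (adjusted p = 0.068). Agt, which encodes angiotensinogen, a product of astrocytes in the brain, had medians of 29.7 and 143 CPM but 247 CPM in the anterior library of mouse 5, and did not pass without mouse 2 or mouse 4 (highest adjusted p = 0.086).

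Chgb (chr2:132781278-132795079), which encodes chromogranin B, was at 2489, 4522, 2685, 3991, 2102 and 2450 CPM in the anterior against 481, 767, 616, 791, 1641 and 594 CPM in the posterior libraries. No posterior library reached the lowest anterior one, although mouse 5 came closest (3.97-fold lower, log2 fold change -1.99 ± 0.23, adjusted p = 4.3e-05). Chga, which encodes chromogranin A, was 2.26-fold lower without overlap (271 to 447 against 118 to 223 CPM). Scg2, which encodes secretogranin II, was lower in 6 of 6 mice (log2 fold change -0.75 ± 0.16), and not past the threshold without mouse 1 (adjusted p = 0.0802). Npy, the neuropeptide Y gene, was 3.19-fold lower (106 to 319 against 37.6 to 78 CPM, adjusted p = 1.3e-05), also without overlap. Several peptides known from amygdala circuits did not pass and lie outside the selection rule. Among them, Penk, the enkephalin precursor gene, spread from 183 to 828 CPM in the anterior against 180 to 2131 CPM in the posterior libraries (adjusted p = 0.45), and Pdyn, the precursor of the dynorphins that act on the product of Oprk1, had medians of 24.3 and 22.8 CPM (adjusted p = 0.89).

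Neuropeptide receptors included changes of over 10-fold in both directions. Rxfp3 (chr15:11033717-11037991), the receptor of relaxin-3, a peptide of the brainstem nucleus incertus, was at 0.274, 2.99, 0.846, 2.33, 3.02 and 3.48 CPM in the anterior libraries. In the posterior libraries it was at 41.2, 59.4, 52.1, 81.6, 36 and 32.7 CPM, so that the portions were far apart in every mouse (26.1-fold, log2 fold change 4.71 ± 0.40, adjusted p = 1.4e-06). Trhr (chr15:44196135-44235912), the receptor of thyrotropin-releasing hormone, was 14.5-fold higher (3.54 to 19.3 against 55.3 to 168 CPM, adjusted p = 1.1e-05). Tacr1, the substance P receptor, had medians of 5.8 and 22.7 CPM and Oxtr, the oxytocin receptor, 3.68 and 12.4 CPM, both without overlap between the portions (log2 fold changes 1.95 ± 0.33 and 2.27 ± 0.46). Ednrb, the endothelin receptor gene that astrocytes express, was higher by 0.76 ± 0.15, with 162 to 195 CPM against 221 to 390 CPM. Ghsr, the ghrelin receptor, and Npr3, a natriuretic peptide receptor, passed at very low levels, with 4.72 and 2.69 CPM in their highest posterior libraries, and lost their calls without mouse 4 (adjusted p = 0.0656) and mouse 1 (0.0671). Sstr1 and Qrfpr also passed, and did not do so when single mice were left out (highest adjusted p = 0.114 and 0.0985).

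Beside Oprk1 and Npsr1, both without overlap, the somatostatin receptor genes Sstr2 and Sstr3 fell. Sstr2 (chr11:113619342-113626028) was at 154 to 336 CPM in the anterior against 44.5 to 57.6 CPM in the posterior libraries, so that the posterior libraries were close together and far below the anterior ones (4.71-fold lower, log2 fold change -2.24 ± 0.18, adjusted p = 8.4e-07). Sstr3 had 18.2 to 27.8 CPM in the anterior against 2.09 to 8.27 CPM in the posterior libraries of mice other than mouse 5, in which the posterior library had 22.3 CPM (log2 fold change -2.06 ± 0.38, adjusted p = 0.0035). Rxfp1, the relaxin receptor, and Hcrtr1, an orexin receptor, were lower in 6 of 6 mice without overlap, with medians of 21.2 and 3.14 CPM and of 9.64 and 2.49 CPM. The cholecystokinin receptor gene Cckbr was lower in 5 of 6 mice (medians of 210 and 102 CPM, adjusted p = 0.0083, and 0.0571 without mouse 1). Vipr1 was lower and did not pass without mouse 1, 3, 4, 5 or 6 (highest adjusted p = 0.178).

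**Figure D3:**
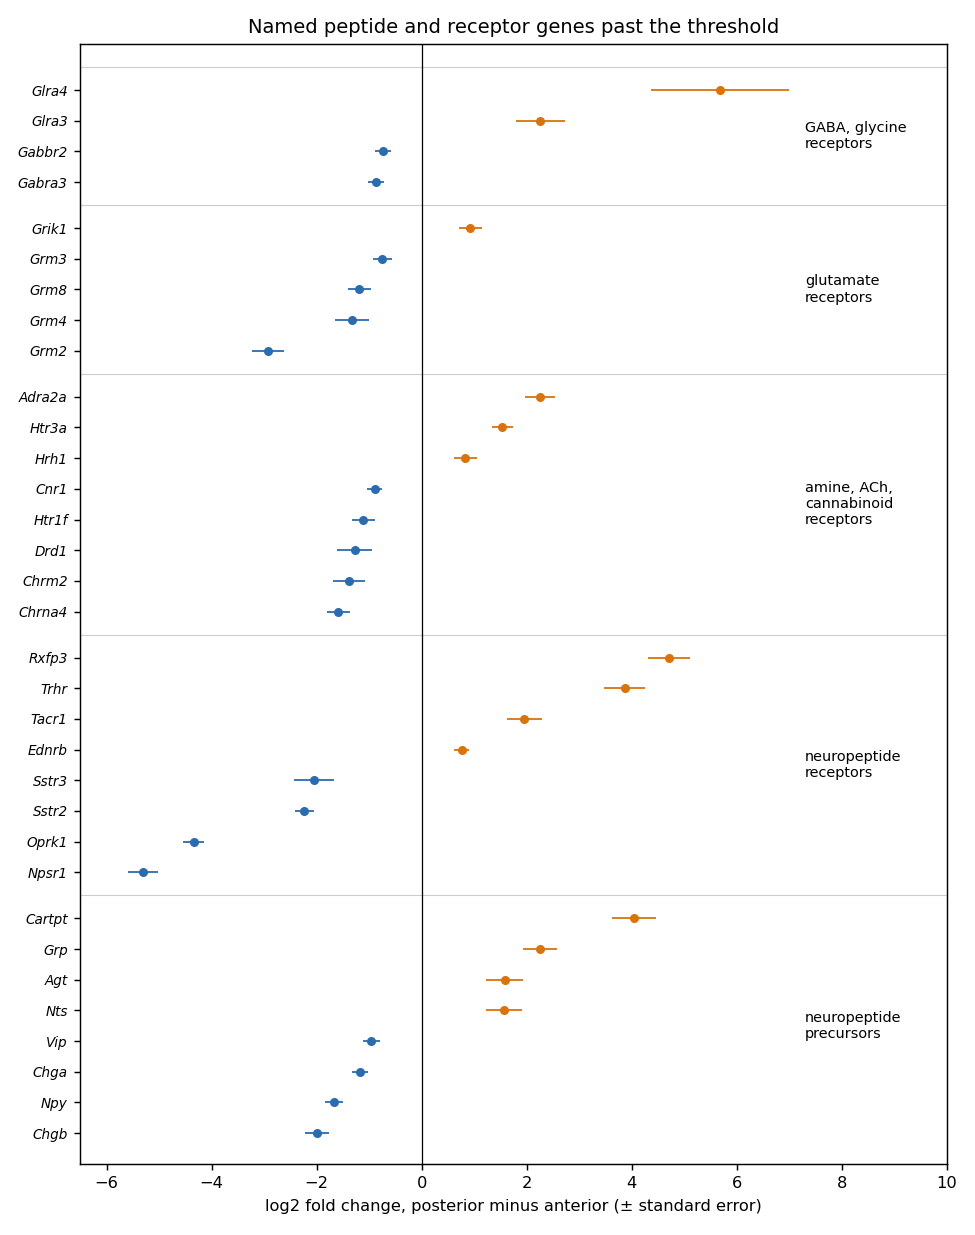
Log2 fold change, posterior minus anterior, of named peptide and receptor genes past the threshold, with its standard error, grouped by list (6 mice). The lists are neuropeptide precursors and the receptors of neuropeptides, of amines, acetylcholine and cannabinoids, of glutamate, and of GABA and glycine. Npsr1 and Oprk1 lie farthest to the left, at -5.31 and -4.35. Of the 2 genes farthest to the right, Glra4 has a wide error and low counts in both portions. Rxfp3, at 4.71, has a narrower error and is low in the anterior portion only.

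Promoter sequences were searched for short motifs, since several genes of peptide signalling are known to respond to cyclic AMP. The cAMP response element, TGACGTCA, which reads the same on both strands, occurred in the 250 bases before the gene start of 2.52% of 14824 genes tested that have an entry in the RefSeq promoter table (GRCm38.p6). The element occurred in 1.41% of 284 higher and in 3.7% of 405 lower genes with an entry. Named genes on the chromosome that carries Grp and Ttr were not searched one by one. Among the other named genes, 3 of the 60 with an entry held the element. These 3 are genes of peptide signalling, and many of the named genes were drawn from peptide and receptor lists. Only exact matches were searched. For each gene, 30 bases around the element, in capitals, are shown because the directions of the 3 genes differ (Cartpt higher, Chgb and Sstr2 lower). Cartpt lies on the minus strand of chr13:99900777-99900806, and Chgb and Sstr2 on the plus strand of chr2:132781559-132781588 and chr11:113619258-113619287.
Cartpt: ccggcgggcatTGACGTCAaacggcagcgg
Chgb: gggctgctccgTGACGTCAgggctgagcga
Sstr2: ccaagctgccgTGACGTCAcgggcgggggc
In Cartpt and Chgb, the element lies inside the gene span of the GENCODE annotation, which begins further upstream, and in Sstr2 it lies upstream of the gene. The motif CAGATG of NeuroD factors, searched on both strands, occurred in 13.7% of all, 19% of the higher and 13.1% of the lower genes with an entry. The motif AGGTGTGA of T-box factors, also searched on both strands, occurred in 1.01, 0.704 and 0.988%. These matches describe letters in the windows and were not tested.

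Of 49 receptors for monoamines, acetylcholine, adenosine and cannabinoids, 3 were higher and 6 lower. Adra2a, the inhibitory alpha-2A adrenergic receptor gene, was at 2.36 to 7.24 CPM in the anterior against 13.6 to 39.2 CPM in the posterior libraries, without overlap (4.77-fold higher, adjusted p = 0.00011). Hrh1, a histamine receptor gene, was higher by 0.83 ± 0.22 on the log2 scale, and not past the threshold without mouse 3, 4, 5 or 6 (highest adjusted p = 0.17). Chrna4, a subunit of nicotinic acetylcholine receptors, was lower in 6 of 6 mice (17.9 to 47.4 against 4.97 to 25.3 CPM, log2 fold change -1.59 ± 0.22, adjusted p = 0.00031). Htr1f, a serotonin receptor gene, was lower with a log2 fold change of -1.11 ± 0.22, Cnr1 as given above, and Hrh3, Drd1 and the muscarinic receptor gene Chrm2 were lower and lost their calls when single mice were left out (highest adjusted p = 0.0852, 0.16 and 0.054).

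Among 24 glutamate receptor genes, 6 were lower and 1 was higher, and 4 of the 6 were metabotropic receptors that couple to inhibitory G proteins. Grm2, the presynaptic mGlu2 receptor gene, was at 49 to 98.7 CPM in the anterior against 5.23 to 23 CPM in the posterior libraries. The portions did not overlap, and mouse 5 had the highest posterior value (7.63-fold lower, log2 fold change -2.93 ± 0.30, adjusted p = 1.1e-05). Grm8 had a log2 fold change of -1.19 ± 0.21. Grm3 and Grm4 had log2 fold changes of -0.75 ± 0.18 and -1.34 ± 0.32, and did not pass without mouse 1, 2 or 3 and without mouse 2, 4, 5 or 6 (highest adjusted p = 0.084 and 0.085). The kainate receptor gene Grik1 was higher in 6 of 6 mice without overlap (10.5 to 22 against 25 to 35.2 CPM), and not past the threshold without mouse 3, 4 or 6 (highest adjusted p = 0.1). The NMDA receptor gene Grin2b (outside the rule) had medians of 277 and 257 CPM (adjusted p = 0.96).

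Of 22 GABA and glycine receptor genes, 4 were lower and 2 higher. Gabra3, an alpha subunit of GABA-A receptors, was lower in 6 of 6 mice (509 to 1155 against 371 to 642 CPM, log2 fold change -0.87 ± 0.16, adjusted p = 0.0027). The GABA-B receptor gene Gabbr2 was lower (log2 fold change -0.74), and lost its call without mouse 1 or mouse 3 (highest adjusted p = 0.077) and without the mouse as block. The 2 higher genes, Glra3 and Glra4, encode alpha subunits of glycine receptors. Glra3 was at 2.27 to 31.7 CPM in the anterior against 13.8 to 76.3 CPM in the posterior libraries, higher in 6 of 6 mice (log2 fold change 2.25 ± 0.47, adjusted p = 0.0082), and reached 0.06 without mouse 4. Glra4 had at most 5.17 CPM in any library, and did not pass without mouse 1, 2, 3 or 4 (highest adjusted p = 0.071).

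Of 72 potassium channel genes, 12 were lower and 2 higher in the posterior portion. Kcnh7, an ERG-type channel gene that slows repeated firing, was at 89.8 to 148 CPM in the anterior against 21.6 to 56.7 CPM in the posterior libraries (2.94-fold lower, adjusted p = 6.6e-05). The voltage-gated Kv1 genes Kcna6 (153 to 191 against 42.8 to 98.7 CPM, 2.42-fold lower) and Kcna2 (62.4 to 104 against 17 to 50.6 CPM) were lower, as was the modulatory subunit gene Kcnv1 (169 to 360 against 110 to 130 CPM). In all 4 genes the portions did not overlap. Among the remaining 8 lower genes, Kcnj11, a subunit of ATP-sensitive channels, had the most negative log2 fold change, -1.85. Kcnn3, the calcium-activated SK3 channel gene, and Kcng2 were higher by 0.93 ± 0.23 and 1.65 ± 0.41, and each lost its call in 5 of the fits that left out 1 mouse (highest adjusted p = 0.12 and 0.11).

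Of 42 sodium, calcium, HCN and TRPC channel genes, 9 were lower and 1 was higher. Among the lower genes were those of auxiliary subunits of sodium channels, which set the gating and placement of the pore. Scn2b was at 1212 to 1816 CPM in the anterior against 577 to 1200 CPM in the posterior libraries, without overlap (log2 fold change -0.94 ± 0.16, adjusted p = 0.0018). Scn4b, which is abundant in striatal projection neurons, was at 4.92 to 11.8 CPM in 5 anterior libraries, at 67.1 CPM in that of mouse 5 and at 0 to 8.24 CPM in the posterior ones (log2 fold change -4.46 ± 0.77, adjusted p = 0.002). The fold change of Scn4b was -2.89 without the mouse as block, -1.05 with all 14 C57BL/6J libraries and -6.15 in DESeq2, and the gene lost its call in the first 2 of these and in the robust fit. Beside this, the summed level of 15 markers of striatal-type neurons was 677 CPM in the anterior library of mouse 5 and 232 to 380 CPM in the other anterior libraries, and its part in the value of Scn4b was not tested. Cacng2, a regulator of AMPA receptors, had a log2 fold change of -1.0 ± 0.19. Trpc4, a receptor-operated cation channel gene, was higher in 6 of 6 mice (18.8 to 43.2 against 40 to 124 CPM, log2 fold change 1.23 ± 0.19, adjusted p = 0.00067).

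Genes of tissue bordering the basolateral amygdala were read beside these results. The lateral ventricle lies next to the posterior amygdala, and its choroid plexus makes cerebrospinal fluid while ciliated ependymal cells line its wall. Of 10 choroid plexus markers, 5 were higher and none lower in the posterior portion (edgeR, median log2 fold change 3.38 over the 10, all 10 above 0). Ttr, which encodes transthyretin, the most abundant product of the choroid plexus, was at 2.58 to 19.6 CPM in the anterior libraries and at 1377, 389, 862, 189, 101 and 1250 CPM in the posterior libraries of mice 1 to 6 (adjusted p = 1.4e-05). Prlr, the prolactin receptor gene, had 1.58 to 8.31 against 14 to 53.8 CPM. The summed level of the list was 11.2 to 36.3 CPM in the anterior against 131 to 1448 CPM in the posterior libraries, and without Ttr 4.56 to 16.7 and 30.9 to 94.4 CPM. Of 10 ependymal markers, 3 were higher and all 10 had a log2 fold change above 0. Tmem212 was at 0 in 4 anterior libraries and at most 0.564 CPM in the others, and in the posterior libraries at 3.66, 16.2, 5.42, 0.674, 6.65 and 88.4 CPM. The ependymal sum was 12.3 to 18 CPM in the anterior libraries, and 23.8 to 50.5 CPM in the posterior libraries except that of mouse 6, which had 242 CPM.

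These sums move with the portion, and their part in the receptor and peptide differences was not tested. Posterior Ttr was highest in mice 1 and 6 and lowest in mouse 5. Posterior Cartpt was also lowest in mouse 5, and was highest in mouse 2. Posterior Trhr was highest in mouse 4 (168 CPM) and lowest in mouse 6 (55.3 CPM). Rxfp3 was highest in mouse 4 (81.6 CPM) and lowest in mouse 6 (32.7 CPM), and Dcn was highest in mouse 2 (1671 CPM) and lowest in mouse 6 (762 CPM). With Dcn, the only one of 10 markers of meningeal fibroblasts that passed, left out, the sum of that list was 44 to 61.4 CPM in the anterior against 38.2 to 110 CPM in the posterior libraries, and the defining markers Col1a1 and Col1a2 did not pass (medians of 1.14 and 2.02 CPM, and of 7.49 and 7.22 CPM).

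Markers of neighbouring neuron groups were counted in the same way, against the 3.64% of all genes that passed. Of 7 markers of the medial amygdala and hypothalamus tested, 1 was higher, Esr1, the estrogen receptor alpha gene (1.61 to 11.3 against 11.8 to 28 CPM, without overlap, adjusted p = 0.0012). The markers Otp and Sim1 of that list were at 0 in the posterior libraries. The sum of the list was 18.2 to 40.7 CPM in the anterior and 41.0 to 60.5 CPM in the posterior libraries. Of 10 hippocampal markers, 2 were higher and 1 lower. C1ql2, a synaptic protein gene of dentate granule cells, was at 0 to 2.89 CPM in the anterior against 9.9 to 24.4 CPM in the posterior libraries, while Prox1, the defining factor of those cells, had medians of 12.3 and 13.2 CPM. Spink8 was higher (not past the threshold without mouse 1, 2 or 5, highest adjusted p = 0.073) and Bok lower, with mouse 5 as the exception. Of 4 layer 6b markers, Cplx3 was lower and Moxd1 higher, and with all 14 C57BL/6J libraries, unpaired, neither passed. Of 15 striatal-type markers, Drd1 alone passed, lower, and the 5 claustrum markers tested gave none in edgeR or DESeq2, their most abundant member Synpr having the only unadjusted p under 0.05 (adjusted p = 0.17).

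Few glial and vessel markers passed. None of 10 oligodendrocyte, 6 oligodendrocyte precursor, 10 microglial, 10 endothelial, 7 mural or 5 erythrocyte markers did so in edgeR's test. An unadjusted p under 0.05 was found for 7 of these 48, and for 13.5% of all genes tested. The lists differed, with 4 of the 7 mural and 2 of the 10 microglial markers under 0.05. All 7 mural and 9 of 10 microglial markers had a log2 fold change below 0. In B6D2F1N mice, 2 mural and 2 microglial markers passed, all lower. In C57BL/6J, DESeq2 called 2 of the 48, Aif1 and Myh11, both lower, and 8.64% of the 17763 genes to which it gave an adjusted p. The mural sum was lower in the posterior library of 6 of 6 mice (496 to 690 against 273 to 582 CPM). Among the most abundant members of these lists, Pdgfra, Slco1a4, Rgs5 and Hbb-bs had adjusted p-values of 0.83, 0.95, 0.26 and 0.88. The oligodendrocyte sum was 7995 to 10724 CPM in 5 anterior libraries and 24082 CPM in that of mouse 5. Of 10 astrocyte markers, 4 were higher and none lower. Gfap, the intermediate filament gene of reactive and fibrous astrocytes, was higher in 6 of 6 mice (54 to 445 against 192 to 742 CPM, log2 fold change 1.38 ± 0.23, adjusted p = 0.0015), but did not pass without the mouse as block or with all 14 C57BL/6J libraries. Gjb6, a gap junction gene, was higher by 0.93 ± 0.18. Slc1a3 and Gja1 passed with all mice and not without some of them (highest adjusted p = 0.163 and 0.0541). The astrocyte sum was 4303 to 6564 CPM in the anterior against 4233 to 8042 CPM in the posterior libraries. Averaged over mice, this sum moved in the same direction as Agt and Ednrb, which astrocytes express, and its part in their differences was not tested. Single mice differed. In mouse 1 the sum fell (4361 to 4233 CPM) while Agt and Ednrb rose (log2 CPM differences 0.36 and 0.62). In mouse 5 the sum rose (4512 to 5778 CPM) while Agt fell (-0.59) and Ednrb rose (0.43).

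**Figure D4:**
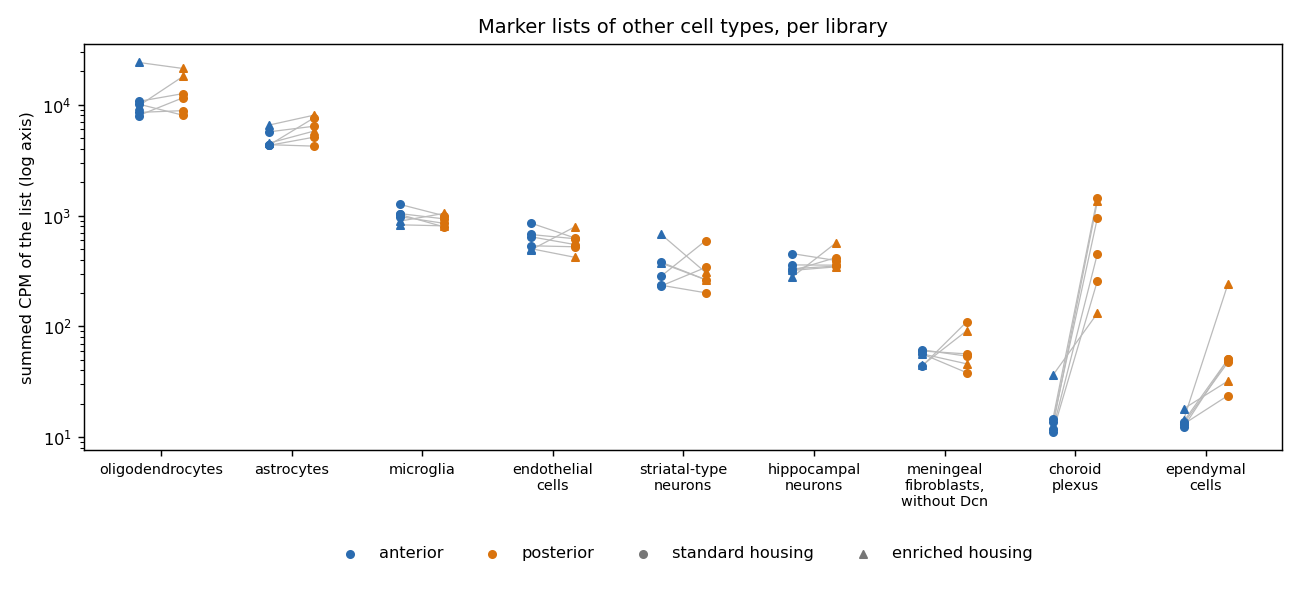
Summed CPM of the marker lists of other cell types in each library, on a log axis. Lines join the libraries of a mouse, and triangles are mice in enriched housing. Anterior and posterior points separate for the choroid plexus and ependymal lists and overlap for the others shown.

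Whether the housing of the mice changed the portion difference was tested with an interaction term, with 4 standard-housed and 2 enriched mice. No gene passed in edgeR (0 of 25751), 1274 (4.95%) had an unadjusted p under 0.05, and DESeq2 called 27. Among the 79 named genes past the threshold, 24 had an unadjusted p under 0.05, and the smallest adjusted p was 0.133. The vesicular glutamate transporters were among these. The fitted difference of Slc17a6 differed by -2.44 ± 0.42 on the log2 scale, enriched minus standard-housed (adjusted p = 0.13), and that of Slc17a7 by 1.52 ± 0.30 (adjusted p = 0.15). In the 4 standard-housed mice alone, the log2 fold changes of the transporters were 2.41 and -1.69, both past the threshold (adjusted p = 0.00012 and 2.1e-05), and 899 genes passed, among them 677 of the 937.

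B6D2F1N mice, the hybrid strain of the study, gave the same comparison in 10 other animals. There, 1110 of 27761 genes (4.0%) passed. Of the 79 named genes past the threshold in C57BL/6J, 79 had the same sign in B6D2F1N, and 52 also passed there. The named genes were selected by their p-values in C57BL/6J, and the share of equal signs over all genes is not given here. Mean levels of Bmp3 in B6D2F1N fell from 710 to 74.7 CPM (log2 fold change -3.19 ± 0.24), lower in 10 of 10 mice. Npsr1 was lower in 10 of 10 mice (111 to 8.08 CPM, -3.84 ± 0.39) and Oprk1 in 9 of 10 (141 to 23.4 CPM, -2.83 ± 0.55). Rxfp3 was higher in 9 of 10 mice (3.39 to 36.3 CPM, 3.33 ± 0.42) and Trhr in 10 of 10 (8.48 to 67.9 CPM, 3.01 ± 0.34). Lypd1, Htr3a, Otof and Cbln4 did not pass in B6D2F1N (adjusted p = 0.67, 0.65, 0.1 and 0.087).

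The difference between strains was tested itself, over both portions of 16 mice. No gene passed (0 of 29437 in edgeR and 0 in DESeq2, with 871, or 2.96%, at an unadjusted p under 0.05). Of the 79 named genes past the threshold in C57BL/6J, 16 had an unadjusted p under 0.05 and an adjusted p of 1. The smallest unadjusted p among them was that of Vgll3, 9.2e-05, whose levels in B6D2F1N were 0.895 and 7.5 CPM. Dcn (28.6 to 485 CPM in B6D2F1N, log2 fold change 2.97 ± 0.67) and Htr3a (21.3 to 31 CPM, 0.31 ± 0.28) had smaller fitted differences than in C57BL/6J. These differences in size did not hold after adjustment.

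**Figure D5:**
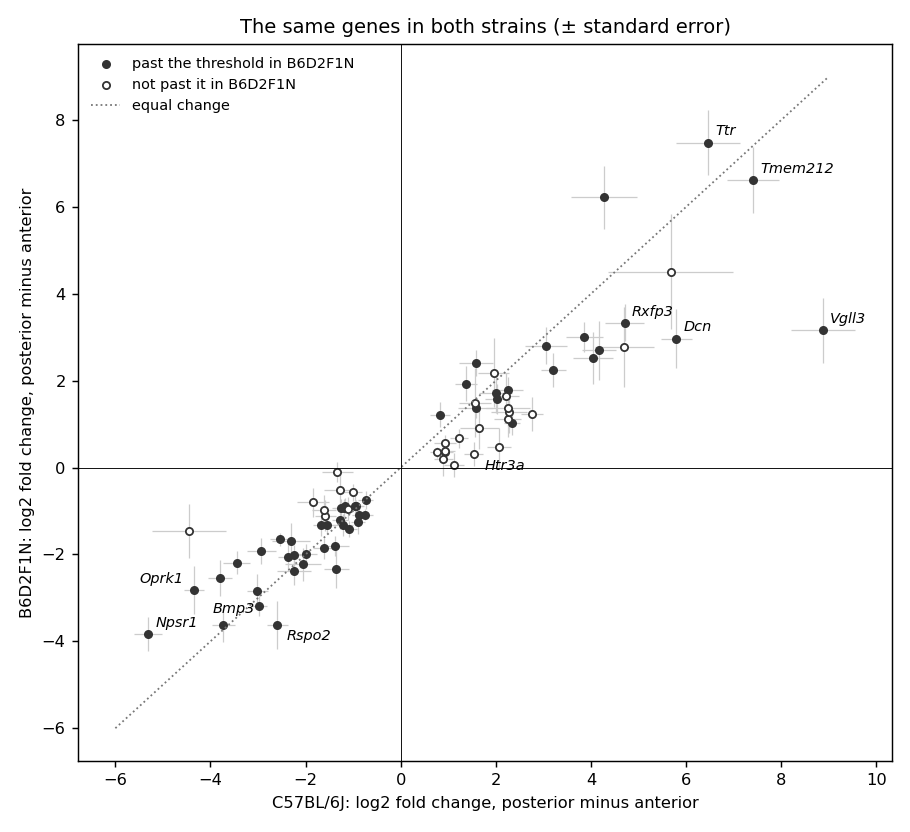
Fitted log2 fold change, posterior minus anterior, of the 79 named genes past the threshold in C57BL/6J (x axis, 6 mice), against the same in B6D2F1N (y axis, 10 mice), with standard errors. Filled points passed in B6D2F1N as well (52 genes), open points did not. All points lie in the lower left or upper right quadrant, and the fitted value of Vgll3 rests on 3 anterior reads in C57BL/6J.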

How the data were processed

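The authors sequenced laser-captured amygdala RNA of female mice (single-end, 72 bases). Per the labels, reads passed FastQC 0.11.7, Trimmomatic 0.38, HISAT2 2.1.0, SAMtools 1.8 and HTSeq 0.11.2 (GRCm38), and the deposited values are raw read counts for 52636 genes per library. The annotation release and strand setting are not given in the sources used here, so that reads of genes overlapping on opposite strands (Npsr1, Sstr2, Myh7, Kcnh7 and Lypd1, for example) cannot be separated. Reads on no gene (13.7 to 24.4%) were left out. Symbols came from GENCODE M21 (52489 matched).

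Counts were normalized by TMM and tested with edgeR 4.0.16 (R 4.3.3, glmQLFTest) with the mouse as block, for genes with at least 10 reads in total, at a Benjamini-Hochberg adjusted p of 0.05. Standard errors were derived from the fold change and F. Libraries of a mouse are paired because they come from the same animal. Their deviations from the portion means correlated with r of -0.055 to 0.148 over 15720 genes (median 0.0652). Between anterior and posterior libraries of different mice the median was -0.0303. The r of mouse 6, -0.055, was below the median of its anterior library with the posterior libraries of other mice (0.0394). CPM are TMM scaled. The counting interval covers counting error only, since reads carry no molecular identifiers. In counts simulated for this comparison (25751 genes), 77.5% of 200 genes changed by 2 on the log2 scale were recovered.

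Named genes were the 8 protein-coding genes with the smallest p in each direction, up to 4 members past the threshold per direction of each neuron, peptide, receptor or channel list, and up to 2 of each bordering-tissue list, or its most abundant member. Several genes that this rule selects are not reported here. Members and lists were chosen with earlier results of these data known. Not tested were Galr3, Htr3b, Grin3b, Grm6, Gabra6, Kcnv2 and Lhx5 (under 10 reads), and Smim32 and Ctgf (no matching symbol). Alternatives were DESeq2 1.42.0, other scalings and count minimums, a robust fit, no block, all 14 C57BL/6J libraries without block, standard-housed mice only and each mouse left out.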

Additional observations from a re-analysis of the deposited data

Results flagged for a closer look

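Dixon's gap test, over the 6 mice, was run on 114 values (the portion differences of the named genes and the marker sums of each portion). It gave 16 values that stood apart (14.0%). The nominal 5% level of the test holds for independent normal values. Values that share a mouse are not independent, so that no excess over chance can be read from these shares. Log2 CPM differences here are posterior minus anterior. Mouse 5 stood apart for Calb2 (-0.78, other mice 2.11 to 2.73), Chgb (-0.36, others -2.56 to -2.04), Dkk3 (0.036, others -2.30 to -1.43), Glra4 (-0.44, others 3.76 to 5.44), Neurod6 (0.95, others -3.62 to -2.25) and Satb1 (-1.38, others -2.73 to -2.32). Mouse 6 stood apart for Grp (-0.23, others 2.53 to 2.85).

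The anterior library of mouse 5 had the highest sums of striatal-type (677 CPM), ependymal (18.0 CPM), choroid plexus (36.3 CPM) and oligodendrocyte markers (24082 CPM), and its posterior library the highest hippocampal sum (569 CPM, others 345 to 418 CPM). The posterior library of mouse 3 had 593 CPM of striatal-type markers, against 201 to 340 CPM in the others. The posterior library of mouse 6 had 242 CPM of ependymal markers. Erythrocyte markers were highest in both libraries of mouse 1 (326 CPM anterior, 299 CPM posterior). Without mouse 5, 1070 genes passed in place of 937.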

How the results depend on the processing

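The 937 genes became 1535 in DESeq2's paired likelihood ratio test (700 higher, 835 lower), 706 with no replicate block, and 602 to 1070 with a mouse left out. The remaining settings (scalings, count minimums, robust fit, all 14 libraries, standard-housed mice only) gave 745 to 1405 genes. For the housing interaction, DESeq2 called 27 genes where edgeR called 0, and in B6D2F1N DESeq2 called 1994 where edgeR called 1110. The causes were not tested. The next counts cover only the 79 genes past the threshold that the selection rule named. Others given above, such as Calb1, Thy1, Pvalb, Scg2 and Cckbr, are not among them, and each of those lost its call with some mouse left out. Of 79 named genes past the threshold, 29 lost their call under at least 1 of 16 settings, and 0 reversed. Of these, 16 did so with no replicate block (Agt, Bok, Calb2, Chrm2, Drd1, Gabbr2, Gfap, Glra4, Grm4, Htr1f, Kcnn3, Moxd1, Neurod6, Scn4b, Spink8 and Sstr3), 20 with all 14 C57BL/6J libraries (the same but for Gabbr2, Neurod6 and Sstr3, and also Cacng2, Chrna4, Cplx3, Ednrb, Hrh1, Kcna2 and Slc17a6), and 9 in the robust fit (Agt, Bok, Calb2, Glra3, Neurod6, Nts, Scn4b, Slc17a6 and Ttr). Genes that never passed crossed 0, namely Slco1a4 (0.040 with library totals only, and -0.195 to 0.032 with a mouse left out) and Hbb-bs (-0.035 to 0.18 with a mouse left out). Depth limits genes near 0 reads, such as Ghsr, Npr3 and Glra4. The 6 mice come from 2 housings, and p-values cover these animals only. In the main test, they set the mean portion difference against the variation left with the mouse as block.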
